A study of Homo sapiens with 16 samples.

Results

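Messenger RNA of 9 genes of the melanoma antigen (MAGE) family and of PRAME, the preferentially expressed antigen in melanoma, was followed through 16 total RNA libraries, 8 from each of 2 established human melanoma lines, A101D and MeWo. The 10 genes are MAGEA1, MAGEA2, MAGEA3, MAGEA4, MAGEA6, MAGEA10, MAGEA12, MAGEC1, MAGEC2 and PRAME, chosen by name and found by their Ensembl identifiers among 60676 genes of the deposited tables. A101D depends on methionine, whereas MeWo grows when homocysteine takes the place of methionine. Cultures were kept either with methionine at 200 µM, as the control, or without it and with homocysteine at 200 µM, but no label or column header gives the medium of a culture. The libraries of each line are numbered 1 to 8, and values are also given for replicates 1-4 and 5-8, which the labels tie to no condition. No other treatment and no genetic change is named, and the labels do not say whether libraries come from separate cultures, so p-values measure the spread between these libraries, which may be technical.

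MAGE genes of type I, to which the MAGE-A and MAGE-C genes belong, lie in clusters on the X chromosome, are active in germ cells of the testis, and are kept silent in most other normal tissues by DNA methylation at their promoters. Many tumours, melanoma among them, switch them on, and peptides of the proteins are then shown on HLA class I molecules to T cells. The proteins bind RING-type ubiquitin ligases, such as TRIM28 for MAGEA3, MAGEA6 and MAGEC2, and alter what these ligases mark for degradation. PRAME is a leucine-rich repeat protein encoded on chromosome 22, serves as a substrate receptor of ligases built on CUL2, can repress signalling by retinoic acid receptors, and is used as a marker of melanoma in pathology.

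Library totals ran from 28910881 to 38961862 counts in A101D and from 31217443 to 38722489 in MeWo. Both lines had RNA of pigment cell genes, with a summed level of 8 melanocyte markers from 2458 to 3511 CPM in the A101D libraries, against 10011 to 11660 CPM in MeWo. CPM are counts per 1e+06 of library size, here scaled with TMM factors (trimmed mean of M-values). SOX10, MITF and PMEL were present in every library of both lines, whereas TYRP1 averaged 0.901 CPM in A101D and 2362 CPM in MeWo. Of the 8 markers 6 were higher in MeWo and 2 lower, DCT (1501 and 504 CPM) and S100B (612 and 131 CPM). The 13 germ cell markers summed to 3.02 to 5.57 CPM per A101D library and 2.75 to 3.46 CPM per MeWo library, with 4 and 3 of them at 0. The 13 markers of keratinocytes, fibroblasts, immune and endothelial cells summed to 43.6 to 67.0 CPM per A101D library and 92.3 to 110 CPM per MeWo library, and none of the 13 was at 0 in a whole line. LUM, a fibroblast marker, made up most of the MeWo sum (1.69 CPM in A101D and 73.9 CPM in MeWo), while 6 of the 8 tested markers of this list were lower in MeWo and 2 higher. In bulk RNA, fewer cells that express a gene and less RNA per cell cannot be told apart.

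Several of these genes are recent copies of each other, which sets what their counts can show. The coding sequences of MAGEA3 and MAGEA6 are both 942 bases long and differ at 18 of them, an identity of 98.1%, with an identical run of 308 bases. The stretch from coding base 434 to 523 holds 4 of the differences, which are in capitals below (GENCODE v29, GRCh38, in the direction of the mRNA), and is shown because only reads that cover such bases can be placed on one gene and not the other.
MAGEA3: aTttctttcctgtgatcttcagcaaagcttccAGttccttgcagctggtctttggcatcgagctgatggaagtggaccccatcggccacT
MAGEA6: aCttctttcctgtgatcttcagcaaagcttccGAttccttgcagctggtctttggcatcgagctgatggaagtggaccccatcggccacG

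Of all 100-base words in the annotated transcripts of MAGEA3, 65.1% occur in no other gene, against 67.0% for MAGEA6, 96.5% for MAGEA12, 97.6% for MAGEA4 and 88.1% for MAGEA10. With 50-base words the shares were 43.5% for MAGEA3 and 46.1% for MAGEA6. MAGEA2 has the same coding sequence as MAGEA2B, with 0 differing bases, and 10.6% of its 100-base words are its own. PRAME, MAGEA1, MAGEC1 and MAGEC2 had 100% unique words of 100 bases. Counts of MAGEA2, MAGEA3 and MAGEA6 are therefore uncertain as to which copy a read came from. Reads that fit several copies may also be uncounted, since their treatment is not given. MAGEA10 shares words with the readthrough gene MAGEA10-MAGEA5, which had 32 counts in A101D and 1 in MeWo. Other genes overlap MAGEA12 (CSAG4, by 33 exonic bases), MAGEA4 (MAGEA4-AS1, antisense, by 172) and PRAME (an antisense gene, by 19), and the strand setting of the counting is not given in the sources used here.

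The stretches before the annotated start sites of the MAGE genes are shown because 6 of the 9 genes were lower in MeWo together. RefSeq windows (GRCh38.p14) of 250 bases before a start were read for 8 of the 10 genes, MAGEA1 and MAGEA10 excepted, and printed 5′ to 3′ in the direction of the gene. Capitals mark GGATGT, a word of 6 bases that holds the GGAT core bound by ETS family transcription factors and was picked after seeing these sequences.
MAGEA3: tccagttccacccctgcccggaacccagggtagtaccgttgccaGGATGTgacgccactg
MAGEA6: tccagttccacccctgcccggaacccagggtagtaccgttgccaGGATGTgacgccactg
MAGEA12: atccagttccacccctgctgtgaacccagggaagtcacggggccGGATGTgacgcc
MAGEA2: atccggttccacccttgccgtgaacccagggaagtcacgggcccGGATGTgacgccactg
MAGEA4: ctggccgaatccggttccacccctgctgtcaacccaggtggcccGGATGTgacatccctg
MAGEC1: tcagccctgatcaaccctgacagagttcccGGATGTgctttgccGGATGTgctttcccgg
MAGEC2: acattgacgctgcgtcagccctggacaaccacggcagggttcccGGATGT

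The MAGEA3 stretch lies at chrX:152698664-152698723 on the plus strand and that of MAGEA6 at chrX:152769760-152769819 on the minus strand, and the 300-base windows of both genes (250 bases before and 50 after the start) have 0 differing bases. The other stretches lie at chrX:152733701-152733756 (MAGEA12, plus), chrX:152753887-152753946 (MAGEA2, minus), chrX:151912410-151912469 (MAGEA4, plus), chrX:141903820-141903879 (MAGEC1, plus) and chrX:142205291-142205340 (MAGEC2, minus). GGATGT, on either strand, occurs in 8.43% of all 35116 RefSeq windows of this length and in 3.31% of their last 100 bases. All 7 MAGE genes with a window hold it, and that of MAGEC1 holds 2 matches in the gene's direction. Among the windows of PRAME, a match stands on the opposite strand of the third only. Such a match is a description of the letters, and MAGEC1, which was higher in MeWo, holds it as well as the genes that were lower there.

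The line comparison asked how these antigens differ between the methionine-dependent and the methionine-independent melanoma line. A group of 6 MAGE genes was high in A101D and from 22.8 to 3913 times lower in MeWo, while MAGEC1 was higher in MeWo and PRAME was high in both. MAGEA2 and MAGEA4 had few counts in either line, and those of MAGEA2 may leave out reads shared with MAGEA2B. In limma-voom 78.7% of the 19247 genes tested passed an adjusted p of 0.05 between the lines, 40.5% lower and 38.2% higher in MeWo. With upper-quartile factors, which move the median of all genes by 0.50, 25.7% were lower and 58.3% higher, and the 6 lower and 1 higher members kept their direction. Against that background, 8 members were tested and 7 passed, 6 lower and 1 higher in MeWo, with a median log2 fold change (MeWo minus A101D) of -6.09 beside -0.02 over all genes tested. MAGEA1 and MAGEA10 entered the test through A101D, with 1 and 0 MeWo libraries over the low-count filter. The direction of MAGEA10 was thus set by the filter, and that of MAGEA1 largely so. Both are among the 6 lower members and enter the median of -6.09. MAGEC1 reached the filter in 4 A101D libraries and in all 8 MeWo libraries.

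**Figure D1:**
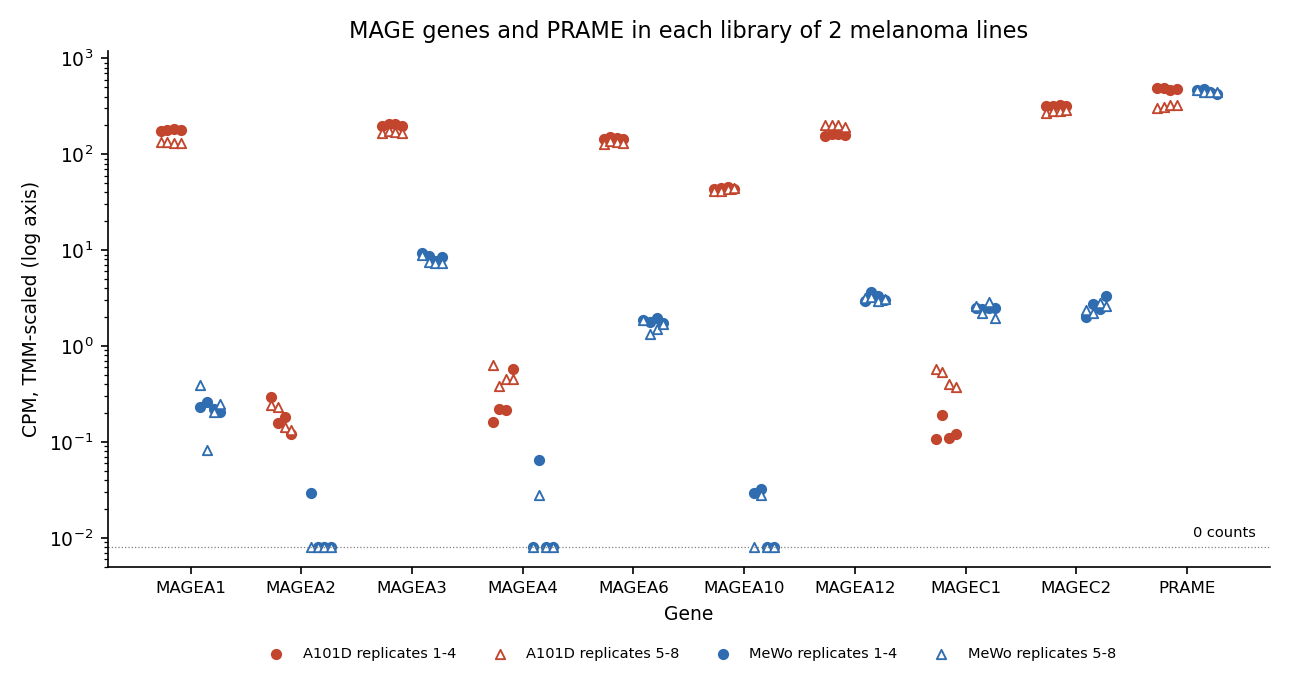
Each point is a library, with the gene on the horizontal axis and its TMM-scaled CPM on a logarithmic vertical axis; A101D is red, MeWo blue, replicates 1-4 filled circles and 5-8 open triangles, and libraries with 0 counts sit on the dotted line. MAGEA1, MAGEA3, MAGEA6, MAGEA10, MAGEA12 and MAGEC2 are separated between the lines by more than a factor of 10, and the PRAME libraries of the lines overlap.

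MAGEC2, which binds TRIM28, had the highest level of the MAGE genes in A101D (ENSG00000046774, chromosome X, 142202345 to 142205290, minus strand). Its A101D libraries ran from 269 CPM over a median of 305 to 327 CPM, and its MeWo libraries from 1.99 over 2.53 to 3.33 CPM. All A101D libraries lay above all MeWo libraries, with means of 302 ± 23.2 and 2.57 ± 0.412 CPM (SD, n = 8 each). The log2 fold change was -6.88 ± 0.09 (SE), with an adjusted p of 8.25e-20 in limma, or 118-fold.

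MAGEA3, an antigen that has been used in cancer vaccines (ENSG00000221867, chromosome X, 152698752 to 152702347, plus strand), was the MAGE gene that kept the most RNA in MeWo. It ran from 165 over a median of 185 to 208 CPM in A101D, whereas the MeWo libraries ran from 7.35 over 8.06 to 9.28 CPM. The MeWo mean was 4.38% of the A101D mean, and the log2 fold change was -4.51 ± 0.08 (adjusted p 1.37e-18, limma).

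MAGEA6, its near-identical copy (chromosome X, 152766136 to 152769747, minus strand), ran from 129 over 141 to 150 CPM in A101D. In MeWo it ran from 1.33 over 1.75 to 1.97 CPM, 1.22% of the A101D mean. The lines did not overlap, with a log2 fold change of -6.36 ± 0.08 (adjusted p 4.33e-20, limma). The 2 copies thus differed in how much remained: the ratio of MAGEA3 to MAGEA6 counts was 1.26 to 1.40 in the A101D libraries and 3.87 to 5.69 in the MeWo libraries. Reads that both copies share can be assigned to either or left uncounted, and what that did to the ratio was not tested.

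MAGEA12 lies between these copies (chromosome X, 152733779 to 152737669, plus strand) and codes for a protein of the same MAGE-A subfamily. It ran from 156 over a median of 178 to 204 CPM in A101D, and the MeWo libraries from 2.93 over 3.13 to 3.63 CPM, without overlap. The MeWo mean was 1.76% of that in A101D, and the log2 fold change was -5.81 ± 0.10 (adjusted p 1.29e-18, limma).

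MAGEA1, the founding member of the family as a T cell antigen, lies farther along the same arm (chromosome X, 153179285 to 153183880, plus strand). Its A101D libraries ran from 132 over 153 to 185 CPM. In MeWo it had 3 to 12 counts per library, 62 in all against 42079 in A101D, a ratio of 676 with an exact 95% interval of 527 to 882 that covers counting error only. The fitted log2 fold change was -9.39 ± 0.28 (adjusted p 2.17e-15, limma).

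MAGEA10, another MAGE-A gene (chromosome X, 152133310 to 152138578, minus strand), showed the widest gap of the 10 genes. The A101D libraries were close together, from 41.1 over 43.1 to 45.9 CPM. In MeWo 5 of 8 libraries had 0 counts and the other 3 had 1 each, against 11782 counts in A101D, a ratio of 3913 (exact 95% interval 1339 to 18976). A count of 0 in a MeWo library allows up to 0.0751 to 0.0973 CPM, taking 3 counts as the limit.

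MAGEA4 and MAGEA2 did not reach the level needed for the test. MAGEA4, the target of an approved engineered T cell therapy, had 6 to 21 counts per A101D library, 0.162 to 0.631 CPM, and 3 counts in all of MeWo, a ratio of 35.5 (exact interval 11.8 to 175). MAGEA2 had 4 to 11 counts per A101D library, 0.122 to 0.297 CPM, and 1 count in MeWo, a ratio of 51.8 (interval 8.90 to 2085). Its copy MAGEA2B had 62 counts in A101D and 2 in MeWo. All 8 A101D libraries were above all 8 MeWo libraries for both MAGEA2 and MAGEA4.

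MAGEC1, a MAGE-C gene whose protein carries a long stretch of repeats (chromosome X, 141903894 to 141909388, plus strand), went the other way. It ran from 0.108 over a median of 0.284 to 0.571 CPM in A101D, 85 counts in all, while MeWo libraries held 1.95 to 2.90 CPM with a median of 2.48, 661 counts. Every MeWo library was above every A101D library, with a log2 fold change of 3.19 ± 0.28 (adjusted p 7.64e-09, limma), although both levels were low. MAGEC2, which lies in the same cluster, had the opposite direction.

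PRAME (ENSG00000185686, chromosome 22, 22547701 to 22559361, minus strand) was the only member with a high level in both lines. Its libraries ran from 303 over 399 to 495 CPM in A101D, those of MeWo from 420 over 449 to 480 CPM, and the ranges overlapped. The means were 400 ± 89.8 and 453 ± 19.4 CPM, and the log2 fold change of 0.21 ± 0.11 (95% interval -0.03 to 0.44) did not pass (adjusted p 0.0947, limma). That result depended on the libraries, since the A101D libraries fell into 2 sets by number. The fit of 2 groups counts the difference between these sets as spread. In replicates 1-4 alone, where 81.0% of genes passed, PRAME was lower in MeWo by a log2 fold change of -0.12 ± 0.03 (adjusted p 0.00208, limma), from 470 to 495 CPM in A101D against 420 to 480 CPM. In replicates 5-8 alone, where 85.3% passed, it was higher in MeWo by 0.50 ± 0.03 (adjusted p 2.31e-13), from 303 to 328 CPM in A101D against 441 to 469 CPM. Leaving out A101D replicate 1, 2 or 4 also brought the pooled difference past the threshold (adjusted p 0.0414, 0.0275 and 0.0495). With upper-quartile factors the PRAME difference was 0.70 (adjusted p 3.17e-05). Among 14 settings other than leaving out a library, 4 passed in the same direction, and replicates 1-4 alone reversed the difference.

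Levels can be ordered between genes only per length of transcript, in CPM per kilobase of exon. Such levels make no allowance for reads that copies share, so those of MAGEA3 and MAGEA6 are less certain. In A101D the order of these levels was MAGEC2 at 151, PRAME at 106, MAGEA3 at 104, MAGEA12 at 92.4, MAGEA1 at 91.0 and MAGEA6 at 75.3, followed by MAGEA10 at 14.9. MAGEC2, with 135 to 164, lay above all libraries of the next genes, whereas PRAME (80.3 to 131), MAGEA3 (92.1 to 116), MAGEA12 (80.4 to 105) and MAGEA1 (77.4 to 108) overlapped. In MeWo the order was PRAME at 120, then MAGEA3 at 4.56, MAGEA12 at 1.63, MAGEC2 at 1.29, MAGEA6 at 0.919, MAGEC1 at 0.573 and MAGEA1 at 0.135. MAGEA12 and MAGEC2 overlapped there, as did MAGEC2 and MAGEA6, and MAGEC1 lay below all MAGEA6 libraries.

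The summed level of the 9 MAGE genes was 942 to 1075 CPM per A101D library, against 16.7 to 19.7 CPM per MeWo library. The make-up differed too, with the same uncertainty for MAGEA3 and MAGEA6. Of the summed CPM per kilobase, MAGEC2 held 28.6 ± 0.768% in A101D and 14.2 ± 2.18% in MeWo, and MAGEA3 held 18.6% to 20.7% in A101D and 47.5% to 55.0% in MeWo. MAGEA12 held 17.6 ± 3.04% and 17.9 ± 1.48%, with overlapping libraries. MAGEA1 held 17.1% in A101D and 1.47% in MeWo, and MAGEC1 held 0.0138% and 6.29%, as means over the libraries of a line. For each count of PRAME there were 2.11 to 3.11 MAGE counts in A101D, and 0.0376 to 0.0459 in MeWo.

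**Figure D2:**
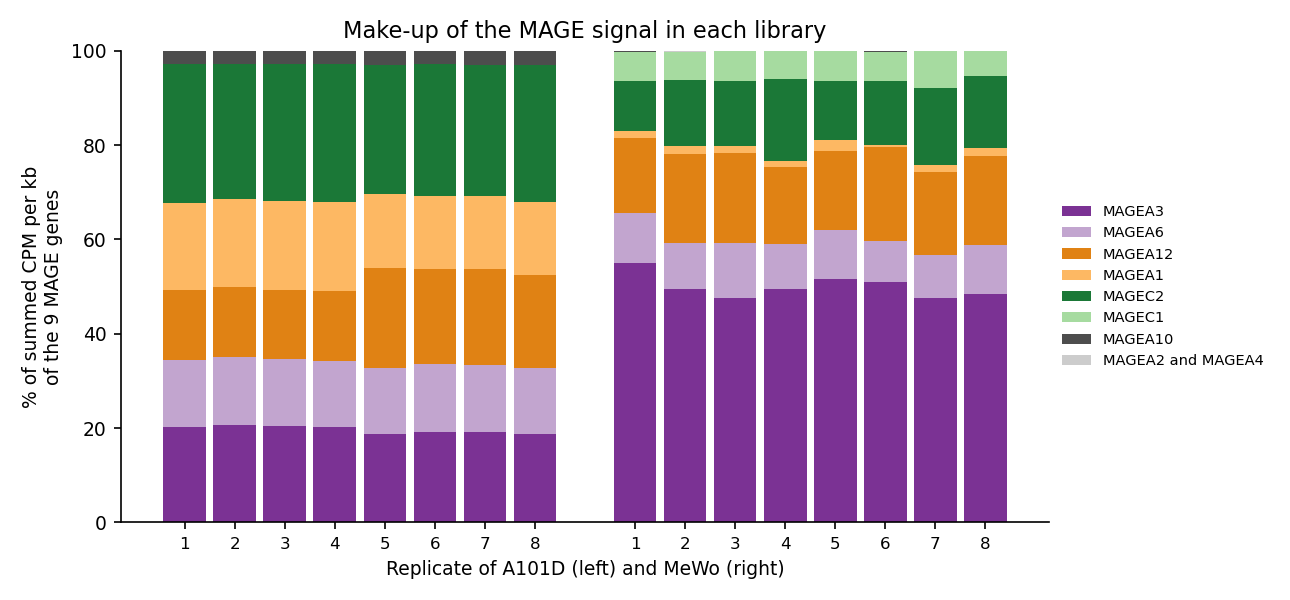
Stacked bars give, for each library on the horizontal axis (A101D replicates 1 to 8 on the left, MeWo on the right), the share of each gene in the summed CPM per kilobase of the 9 MAGE genes, in percent on the vertical axis. MAGEA3 takes 47.5% to 55.0% of every MeWo bar and 18.6% to 20.7% of every A101D bar, and the MAGEA12 share is larger in A101D replicates 5-8.

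The A101D libraries with numbers 5-8 differed from those numbered 1-4 across much of the transcriptome: 67.9% of the genes tested passed, 38.9% lower and 29.0% higher in replicates 5-8. On total counts alone, which move the median of all genes by 0.16, the split was 29.0% lower and 39.5% higher, and that of the members 3 lower (PRAME, MAGEA1 and MAGEA3) and 3 higher (MAGEA12, MAGEC1 and MAGEA10). Of the 8 members tested 7 passed, 5 lower and 2 higher, with a median log2 fold change (replicates 5-8 minus 1-4) of -0.17 beside -0.08 over all genes tested. PRAME had the largest decrease and MAGEC1 the largest increase. The numbers have no labelled meaning, so what set these libraries apart is not known.

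Markers of cell types moved between the same A101D sets. The 8 melanocyte markers summed to 2931 to 3511 CPM in replicates 1-4 and 2458 to 2690 CPM in replicates 5-8, with 5 lower and 2 higher, MITF among the lower (221 and 146 CPM). The 13 markers of keratinocytes, fibroblasts, immune and endothelial cells summed to 43.6 to 47.9 CPM and then 63.0 to 67.0 CPM, with 6 of 8 tested higher, 0 lower and none at 0 in a whole set. VWF, of endothelial cells, had 3.80 and 15.6 CPM. The 13 germ cell markers summed to 5.02 to 5.57 CPM and 3.02 to 3.81 CPM, with both tested genes lower and 6 at 0 in each set. Their part in the members' differences was not tested.

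PRAME had 491, 495, 470 and 478 CPM in A101D replicates 1 to 4 and 303, 313, 323 and 328 CPM in replicates 5 to 8. The sets did not overlap, with a log2 fold change of -0.61 ± 0.04 (adjusted p 5.92e-18, limma), or 1.53-fold. It ran from -0.65 to -0.45 under every other scaling, filter and threshold tried and passed in each.

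MAGEA1 had 173, 179, 185 and 177 CPM in replicates 1 to 4 and 133, 134, 132 and 133 CPM in replicates 5 to 8, lower in each of the latter (log2 fold change -0.42 ± 0.04, adjusted p 6.51e-13, limma). With limma-trend the adjusted p was 0.135. MAGEA3 followed with 197 to 208 against 165 to 174 CPM (log2 fold change -0.26 ± 0.04, adjusted p 1.16e-07). MAGEC2 had 320 to 327 against 269 to 291 CPM, without overlap (-0.20 ± 0.04, adjusted p 1.28e-05), but did not pass on total counts alone (adjusted p 0.253) or with limma-trend (0.124).

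MAGEA6 had 145 to 150 CPM in replicates 1-4 and 129 to 138 CPM in replicates 5-8 (log2 fold change -0.14 ± 0.04, adjusted p 0.000639, limma). This small difference rested on the scaling: it was -0.07 with median-of-ratios factors (adjusted p 0.113) and 0.02 on total counts (adjusted p 0.622), and without A101D replicate 2 its adjusted p was 0.051. MAGEA10 did not pass, with 43.1 to 45.9 against 41.1 to 44.2 CPM (log2 fold change -0.05 ± 0.05, adjusted p 0.307). On total counts it turned to 0.11 (adjusted p 0.0242).

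MAGEA12 was higher in replicates 5-8, at 204, 200, 200 and 193 CPM, than in replicates 1-4, at 156, 164, 161 and 159 CPM. Its log2 fold change was 0.32 ± 0.04 (adjusted p 1.73e-10, limma), and it ran from 0.28 to 0.48 under the other settings. The ratio of MAGEA12 to MAGEA6 counts, which does not depend on library size, was 1.09 ± 0.0115 in replicates 1-4 (SD, n = 4) and 1.45 to 1.58 in replicates 5-8, without overlap. The ratio of MAGEA3 to MAGEA6 counts was 1.35 to 1.40 in the first set and 1.26 to 1.29 in the second.

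MAGEC1 had 4, 6, 3 and 4 counts in A101D replicates 1 to 4 and 19, 21, 14 and 14 in replicates 5 to 8, from 0.108 to 0.191 and from 0.377 to 0.571 CPM. The log2 fold change was 1.73 ± 0.36 (adjusted p 4.29e-05, limma). All libraries of the higher-numbered set lay above the others, and all stayed below the lowest MeWo library. MAGEA4, which was not tested, had 6, 7, 6 and 19 counts and 21, 15, 16 and 17 counts in the same sets, which overlapped.

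**Figure D3:**
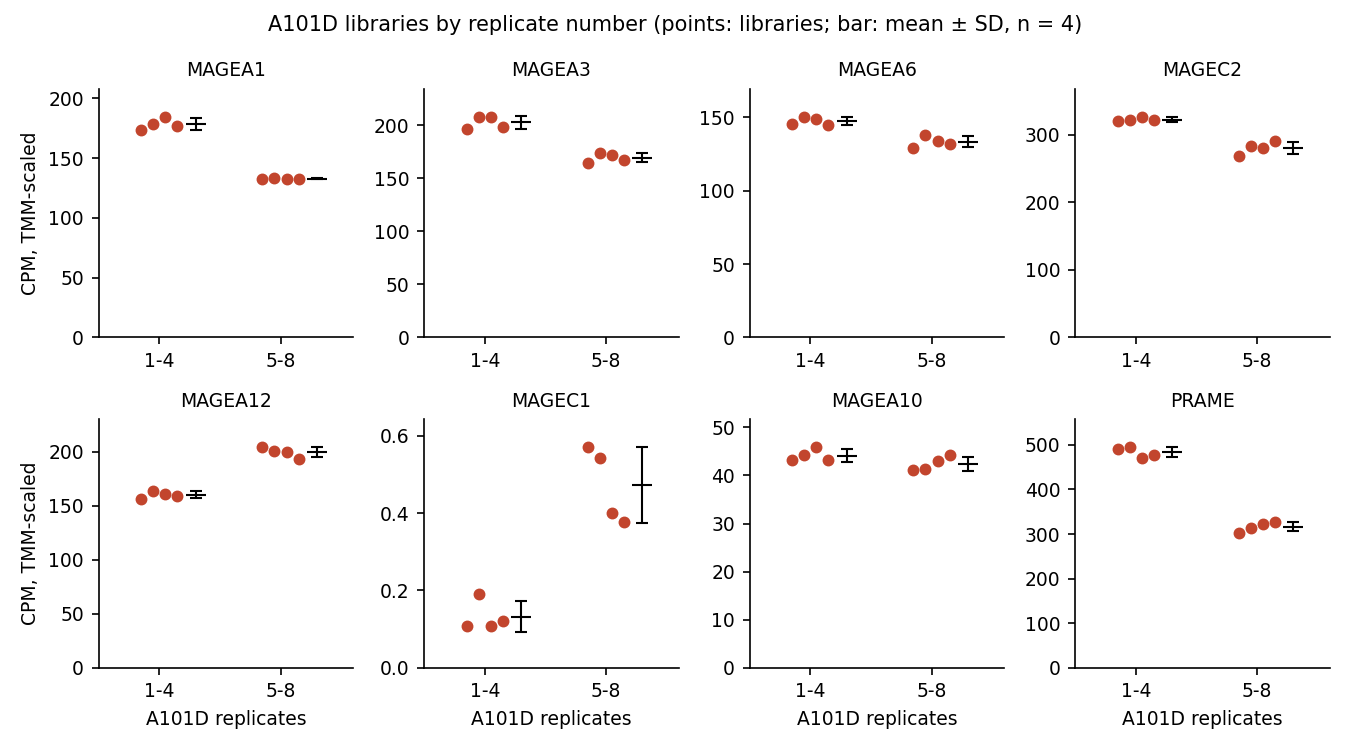
Panels give TMM-scaled CPM of the 8 tested genes in the A101D libraries, with replicates 1-4 and 5-8 on the horizontal axis, points for libraries, bars for the mean ± SD (n = 4) and vertical axes from 0. PRAME falls from 470 to 495 CPM to 303 to 328 CPM, MAGEA12 and MAGEC1 are higher in replicates 5-8, and MAGEA10 overlaps.

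**Figure D4:**
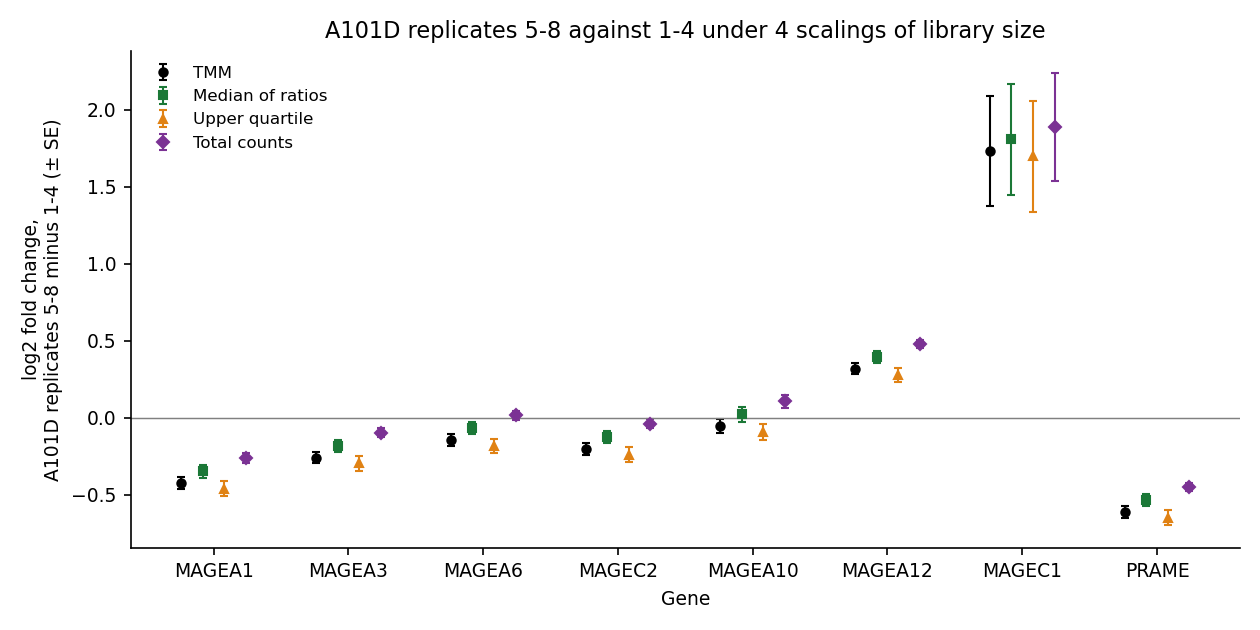
Log2 fold changes of A101D replicates 5-8 minus 1-4 (vertical axis, bars are ± SE) are drawn for the 8 tested genes under 4 ways of scaling the library size. PRAME, MAGEA1 and MAGEA3 lie below 0 and MAGEA12 and MAGEC1 above 0 under all 4, while MAGEA6 and MAGEA10 cross 0.

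In MeWo the same numbers separated fewer genes, 15.1% of those tested, and none of the 8 members passed (limma, adjusted p 0.284 to 0.917, 0 at an unadjusted p under 0.05). PRAME was 420 to 480 CPM in MeWo replicates 1-4 and 441 to 469 CPM in replicates 5-8, a log2 fold change of -0.01 ± 0.04 with a 95% interval of -0.09 to 0.07. MAGEA12 was 2.93 to 3.63 and 2.96 to 3.21 CPM (log2 fold change -0.05 ± 0.12, interval -0.28 to 0.18). MAGEC1 was 2.46 to 2.49 and 1.95 to 2.90 CPM (-0.07 ± 0.14, interval -0.34 to 0.21). With limma-trend 1 member passed, MAGEA6 at -0.21 (adjusted p 0.04).

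The difference between the lines in this contrast was tested itself, as an interaction that 52.1% of all genes passed. PRAME, MAGEA12 and MAGEC1 passed among the 8 members, with MeWo minus A101D values of 0.60 ± 0.05 (adjusted p 1.16e-12, limma), -0.37 ± 0.12 (0.00973) and -1.80 ± 0.38 (0.000104). The 5 others did not pass, among them MAGEA1, with an interval of -0.50 to 0.99, and MAGEA3, with -0.06 to 0.30.

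Genes whose levels most resembled each member were ranked by Pearson's r of log2 CPM over the 16 libraries after the mean of each line was subtracted, which leaves the spread within lines. The contrast between the A101D sets held 95.1% of that spread (sum of squares) for PRAME, 87.5% for MAGEC1, 73.0% for MAGEA12 and 50.2% for MAGEA3. The MeWo libraries, where counts were low, held 97.2% for MAGEA10, 82.5% for MAGEA6, 80.4% for MAGEA1 and 79.9% for MAGEC2. For PRAME they were RACK1, a scaffold protein of the ribosome (r = 0.996), ATP5MC2, a subunit of ATP synthase (0.996), and PTTG1, the securin of mitosis (0.995). For MAGEC1 they included TOMM40L and KCTD6 (0.982 and 0.971), and for MAGEA12 INPP5D (0.960), an unnamed gene (0.944) and TNFRSF10D (0.943). CDK14 was closest to MAGEA3 (0.959), PTN to MAGEA10 (0.939), PLPP2 to MAGEA1 (0.910), ASCC2 to MAGEA6 (0.877) and PDXP-DT to MAGEC2 (0.841). These are descriptions over libraries that share the same 2 sets.

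Other genes of the family and its surroundings were read from lists. Among 16 other type I MAGE genes, 3 were tested. MAGEB2 had 42.9 ± 2.68 CPM across A101D but only 60 counts in MeWo (log2 fold change -7.73 ± 0.23), and MAGEC3 had 1.73 ± 0.382 CPM and 2 counts. MAGEC3 stayed below the low-count filter in every MeWo library, and MAGEB2 in MeWo replicates 1-4. The direction was thus set by the filter for MAGEC3 and partly set by it for MAGEB2. MAGEB6 had 0.549 ± 0.461 and 0.321 ± 0.111 CPM (log2 fold change -0.26, adjusted p 0.666, limma), and was higher in A101D replicates 5-8, with 0.974 CPM there and 0.123 CPM in replicates 1-4 (adjusted p 7.73e-10).

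Of 52 other X-linked cancer-testis genes, 44 had a count in A101D and 22 in MeWo. The 12 that were tested all passed and were lower in MeWo, with a median log2 fold change of -8.84, but most entered the test through A101D alone. CTAG2, an antigen also known as LAGE-1, had 192 ± 43.1 CPM in A101D and kept 13.2 ± 1.69 CPM in MeWo, or 6.87%, and CSAG1, which lies in the MAGE-A cluster, kept 3.27%. GAGE2A had 49.2 CPM and 6 counts in MeWo, PAGE5 had 25991 counts in A101D and 10 in MeWo, and PASD1 had 77.8 ± 14.4 CPM and no count in any MeWo library, beside 2209 counts of MAGEA3 in the same libraries. In A101D replicates 5-8, 7 of the 12 were higher and 4 lower, CTAG2 among the latter with 152 CPM, from 231 CPM in replicates 1-4 (log2 fold change -0.60, adjusted p 1.19e-12, limma).

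Of the 12 type II MAGE genes, which are active in most tissues, 8 were tested, with 3 higher and 3 lower in MeWo and a median of -0.05. With upper-quartile factors 4 were higher and 1 lower. MAGED2 had 325 ± 31.3 CPM in A101D and 136 ± 4.58 CPM in MeWo (log2 fold change -1.26 ± 0.05, adjusted p 3.9e-13, limma), and NDN, an imprinted gene, 2.50 and 41.0 CPM (4.04 ± 0.10). MAGED1 had 433 CPM in A101D replicates 1-4, 194 CPM in replicates 5-8 and 189 CPM in MeWo. Of 33 autosomal cancer-testis genes found, 19 were tested, 9 of them higher and 8 lower in MeWo. BAGE2 had 75.9 ± 7.65 CPM and 12 counts in MeWo, and TEX15, which acts in meiosis, 2.12 CPM and 5 counts. BAGE2 and TEX15 entered the test through A101D alone, so their direction was set by the filter. KIF2C, PBK, TTK and CEP55, which act in mitosis of all dividing cells, were higher in MeWo and fell in A101D replicates 5-8, KIF2C from 81.0 to 21.9 CPM (log2 fold change -1.89, adjusted p 1.49e-32). These genes moved with PRAME between the A101D sets, and their part in its difference was not tested.

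**Figure D5:**
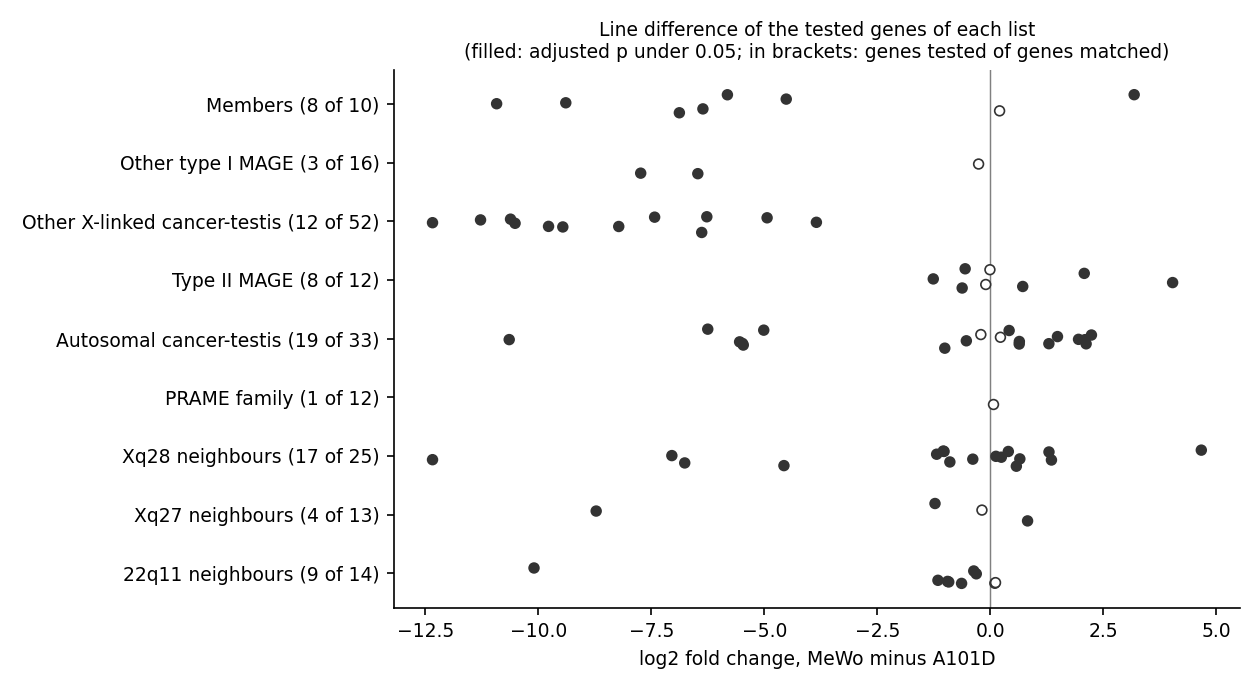
Each point is a tested gene, placed by its log2 fold change (MeWo minus A101D) on the horizontal axis and by its list on the vertical axis with a random vertical shift, filled where the adjusted p is under 0.05. The tested X-linked cancer-testis genes lie left of -3.8, the type II MAGE genes between -1.26 and 4.04, and the chromosome neighbours on both sides of 0.

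Genes around the MAGE-A cluster went both ways. Of 25 neighbours on Xq28, around the MAGE-A genes, 8 were higher and 9 lower in MeWo among 17 tested, with a median of -0.38. GABRA3, a GABA receptor subunit inside that cluster, had 17.0 ± 2.39 CPM in A101D, with 34 counts in MeWo (log2 fold change -7.04 ± 0.27), PNMA6A was higher in MeWo (0.142 and 3.66 CPM), and NSDHL, an enzyme of cholesterol synthesis, had 34.7 and 26.5 CPM (-0.38 ± 0.07, but 0.11 and not past the threshold with upper-quartile factors). PASD1 is on this list too. Around the MAGE-C genes on Xq27, 4 of 13 neighbours were tested, among which LDOC1 had 7.14 ± 0.675 CPM in A101D, with 1 count in MeWo and FMR1 was higher in MeWo (32.3 and 56.9 CPM). Near PRAME on 22q11, 7 of 9 tested neighbours were lower in MeWo and 0 higher, with a median of -0.63. Over all genes tested 40.5% were lower and 38.2% higher. With upper-quartile factors 4 of the 22q11 neighbours were lower and 3 higher, beside 25.7% and 58.3% of all genes. ZNF280A, which lies close to PRAME, had 18.6 ± 2.22 CPM in A101D, with 1 count in MeWo. LDOC1, ZNF280A and PASD1 thus entered the test through A101D alone, so their direction was set by the filter. GABRA3, with 34 counts over all MeWo libraries, entered mainly through A101D, and PNMA6A, at 0.142 CPM in A101D, at least in part through MeWo.

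Partners of the MAGE proteins were present in both lines. TRIM28 had 470 ± 198 CPM in A101D and 522 ± 36.1 CPM in MeWo (adjusted p 0.256, limma, and 0.00391 with upper-quartile factors), and within A101D it fell from 655 CPM in replicates 1-4 to 286 CPM in replicates 5-8 (log2 fold change -1.20, adjusted p 5.78e-27). USP7, a deubiquitinase, was higher in MeWo (105 and 168 CPM), and MDM2, the ligase of p53, was lower (622 ± 99.3 and 96.4 ± 5.40 CPM, log2 fold change -2.68 ± 0.08). In all, 7 of 16 tested partners were higher and 5 lower in MeWo, or 12 and 2 with upper-quartile factors. Of the genes tied to PRAME, the ligase subunits ELOB and RBX1 were slightly higher in MeWo (0.27 and 0.36 on the log2 scale). RBX1 overlapped between the lines, with 51.2 CPM in A101D replicates 1-4, 31.6 CPM in replicates 5-8 and 51.5 CPM in MeWo. The 2 lowest and 2 highest called fold changes of this list fell on genes of retinoic acid handling and response, named for that reason. DHRS3 had 110 ± 34.6 and 1.79 ± 0.258 CPM (log2 fold change -5.88 ± 0.28), STRA6 19.8 and 0.0884 CPM, RXRA 12.9 and 55.4 CPM, and LRAT 2.57 and 13.1 CPM. STRA6 entered the test through A101D alone, so its direction was set by the filter. RXRB and CYP26B1, retinoid genes of the same list, did not pass (log2 fold changes -0.02 and 0.37, adjusted p 0.662 and 0.16, limma), but did with upper-quartile factors. Over this list of 17 tested genes 8 were higher and 5 lower in MeWo, or 11 and 4 with upper-quartile factors. LRRC14, a relative of PRAME and the only tested gene of 12 in that family, had 47.4 ± 3.53 and 49.3 ± 1.34 CPM (adjusted p 0.236), and among the scalings tried it passed with upper-quartile factors only (0.56 on the log2 scale).

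Among 31 tested regulators of such promoters, 11 were higher and 12 lower in MeWo, with a median of -0.07. With upper-quartile factors 22 were higher and 4 lower, and ETS1 no longer passed (0.01). DNMT1, the maintenance DNA methyltransferase, had 275 ± 75.5 CPM in A101D and 434 ± 17.2 CPM in MeWo (log2 fold change 0.71 ± 0.13, adjusted p 0.00013, limma), and UHRF1, which guides it to replicating DNA, 56.4 ± 44.3 and 116 ± 5.87 CPM. Both fell in A101D replicates 5-8, DNMT1 from 346 to 205 CPM and UHRF1 from 97.8 to 15.1 CPM, and so did HELLS (34.7 to 5.29 CPM). TET1, which oxidises methylated cytosine, was lower in MeWo (8.23 and 4.15 CPM), as were the transcription factors ETS1 (210 ± 21.5 and 149 ± 6.34 CPM) and ETS2 (94.0 and 22.5 CPM). CTCFL, a germ cell relative of CTCF that has been linked to MAGE-A promoters, had 40 counts in A101D and 120 in MeWo and was higher in A101D replicates 5-8 (0.247 against 0.0443 CPM, adjusted p 5.17e-06).

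For the presentation of such antigens, 3 of 13 tested genes were higher and 9 lower in MeWo, with a median of -1.06. B2M, the light chain of HLA class I, had 500 ± 16.2 and 473 ± 25.0 CPM (adjusted p 0.0675, limma). It was higher in MeWo with upper-quartile factors (0.41 on the log2 scale). HLA-C had 505 ± 16.6 CPM in A101D and 65.3 ± 3.52 CPM in MeWo (log2 fold change -2.95 ± 0.04), ERAP2, which trims peptides, 66.9 and 3.20 CPM, and PSMB9, a subunit of the immunoproteasome, had 2964 counts in A101D and 251 in MeWo. Reads of HLA genes can be shared between related genes and depend on how far an allele differs from the reference, so their levels are uncertain.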

How the data were processed

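Gene expression was measured by stranded total RNA sequencing in 8 libraries each of A101D and MeWo. The authors deposited raw counts per gene over its exons, from sorted alignments, per the file headers. Each cell joins an Ensembl identifier and its count, which were separated before use. The submitters' processing notes name Trimmomatic 0.39-1, STAR 2.7.1a, featureCounts 2.0.0 and GRCh38, without role or order. Strand setting, treatment of multi-mapping reads and annotation release were not given in the sources used here. Depth ran from 28910881 to 38961862 counts per library.

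Library sizes were scaled with TMM factors (trims of 30% and 5%), computed over all genes. A gene was tested with 0.298 CPM (10 counts at median depth) in 8 or more libraries and a sum of at least 15 counts. limma 3.58.1 in R 4.3.3 was used, with voom weights, robust empirical Bayes and Benjamini-Hochberg adjustment over all 19247 genes, two-sided, threshold 0.05. A quasi-likelihood count test was not run on these joined cells. The line fit used 2 groups and the other contrasts 4 (line by replicates 1-4 and 5-8). Ratios of low counts have exact 95% intervals, and these and the limit for 0 counts cover counting error only.

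Members and gene lists were chosen with earlier results of these data known. Named list genes are whole lists of up to 8 genes, or else the 3 highest CPM per kilobase and the 2 highest and 2 lowest called fold changes, and the 3 most alike genes per member. CSAG1, MAGEA2B and VWF lie outside this rule and were chosen after their values were seen, and genes that overlap a member are named for that overlap. Some genes the rule names are not reported here. Alternatives were other scalings, filters, thresholds, limma-trend, a 2-fold test, single replicate sets, single lines, a replicate block and leaving out each library. A line difference averaged over the replicate sets was also fitted. TMM factors from the tested genes only were added after seeing the data. The limma step was tested on simulated data. Smaller simulated interaction changes were missed more often than the limit first set for that test allowed, and the limit was lowered for them afterwards, so interactions that did not pass have the least power behind them.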

Additional observations from a re-analysis of the deposited data

Results flagged for a closer look

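Of all genes tested 52.1% passed the interaction test, a larger share than among the 8 members tested, where 3 passed. In these 3 members the difference between replicates 5-8 and 1-4 was not the same in both lines by that test in limma (MeWo minus A101D). It was 0.60 for PRAME (adjusted p 1.16e-12), where A101D fell by 0.61 in replicates 5-8 with all 4 libraries of that set below the other 4, and MeWo at -0.01. It was -0.37 for MAGEA12 (adjusted p 0.00973), higher in A101D replicates 5-8 in 4 of 4 libraries, with MeWo at -0.05. It was -1.80 for MAGEC1 (adjusted p 0.000104), which rose in A101D from 17 to 68 counts over 4 libraries each, with MeWo at -0.07. Each passed under every alternative run. No library of a member stood apart within its line of 8 in the 15 combinations of gene and line with at least 10 counts per library on average. That check compares a gap with the range of all 8 libraries, which in A101D can hold the difference between the sets. It could thus miss a library apart within its set, such as A101D replicate 4 for MAGEA4 (19 counts beside 6, 7 and 6).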

How the results depend on the processing

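With limma-trend 4 members passed between the A101D sets, in place of 7, and 1 between the MeWo sets, in place of 0. With one library left out, 7 to 8 members passed between the lines, 6 to 7 between the A101D sets, 0 to 0 between the MeWo sets and 3 to 3 in the interaction. Shares of all genes that passed in these settings, or with the replicate block below, are not given here. These counts of members therefore have no background beside them. Other counts of members stayed within 1.5 times the main count. Several values changed sign. PRAME between the lines was -0.12 in replicates 1 to 4 only, where it passed (adjusted p 0.00208, limma). Between the A101D sets MAGEA10 was 0.0216 with median-of-ratios factors and 0.0227 with TMM factors from the tested genes. On total counts MAGEA10 was 0.107 and passed (adjusted p 0.0242, limma), and MAGEA6 was 0.0170. Between the MeWo sets, total counts gave 0.00773 for MAGEA12, 0.0186 for MAGEC2 and 0.0459 for PRAME, TMM factors from the tested genes gave 0.0108 for PRAME and the MeWo libraries alone 0.0189. With one library left out, the MeWo differences ran from -0.0467 to 0.0175 for PRAME, -0.0949 to 0.00658 for MAGEA12, -0.176 to 0.0838 for MAGEC2, -0.449 to 0.213 for MAGEA1 and -0.161 to 0.0394 for MAGEC1, and the interaction from -0.0257 to 0.637 for MAGEA1 and -0.145 to 0.00395 for MAGEA6. The cause was not tested. No label pairs libraries of equal replicate number across the lines, and weak correlations cannot decide whether they were handled together. Deviations from the line means correlated at 0.0514 to 0.176 between same-numbered libraries, over 0.1 in 7 of 8, with the own number best for 2 of 8. Deviations from the means of the sets correlated at -0.0296 to 0.0932, over 0.1 in 0 of 8, with the own number best for 3 of 8. With a replicate block 7 members passed between the lines and 3 in the interaction. Between the MeWo sets 9.74% of all genes were lower and 5.35% higher, or 14.1% and 3.34% with upper-quartile factors, 5.39% and 10.8% on total counts and 8.42% and 7.2% with TMM factors from the tested genes. In the interaction 21.5% were lower and 30.6% higher, or 27.7% and 25% on total counts. Without a low-count filter, or in 4 libraries, MAGEA4 had a line log2 fold change of -4.12 or -4.16. Low counts limit MAGEA2, MAGEA4, MAGEA10 in MeWo and MAGEC1 in A101D. Those of MAGEA2 may also miss reads shared with MAGEA2B, since the treatment of such reads is not given.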
